A study of Marchantia polymorpha with 2 samples.

Results

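A set of 159 Marchantia polymorpha genes had no read in thalli kept on mock medium and at least 10 reads in thalli of the same construct kept on 17-β-estradiol. They were chosen by their own measured values among the 16280 genes of the deposited table, on 2 conditions, a mock value of 0 and an estradiol value of 9.9 normalized counts or more, which is 10 reads. They made 0.977% of all genes. The 48 identifiers of the male sex chromosome were left out by rule, and 0 of them met both conditions. Their levels are therefore a description of 2 libraries, and the rule fixes that each gene is higher in estradiol.

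The estradiol plants were gametophytic thalli carrying proEF1:MpKNOX2 and proEF1:XVE>>MpBELL1, moved after 10 days of growth from gemmae to plates with 5 µM 17-β-estradiol and frozen 72 h later. The mock plants carried the same 2 transgenes, grew under the same 23°C and 24 h light, and were frozen after the same 72 h without estradiol. MpKNOX2 was thus expressed from the constitutive EF1 promoter in both groups, and the estradiol step concerned MpBELL1, which the XVE transcription factor switches on when estradiol binds it. Each group was 1 library of whole thallus. The labels do not say how many plants or independent lines went into a library. Samples from 0 h were not analysed here, and neither were thalli without the transgenes on estradiol, so an effect of estradiol itself cannot be told apart from one of MpBELL1.

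KNOX and BELL proteins are homeodomain transcription factors of the TALE class, which act as heterodimers. In green algae and land plants, KNOX and BELL partners that meet after fertilisation start the programme of the diploid generation, and class II KNOX genes of the moss Physcomitrium patens are needed for the identity of the diploid sporophyte. In Arabidopsis, class II KNOX and BELL-like proteins regulate secondary wall formation. Genes without a mock read are the end of the response at which a transcript was seen with induction alone. Gene names are not paired with the identifiers in the files, and 0 of the identifiers were found in a reference table of 18391 genes. No name, product, sequence or role can therefore be given for any of the 159 genes, the levels of the 2 transgenes were not analysed here, and the label of thallus could not be checked against marker genes.

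Reads in genes numbered 13103037 in estradiol and 15495357 in mock, so the genes unread in mock were missed in the deeper library. A gene with 0 mock reads could still have been present at up to 3 reads, or 3.04 normalized counts, the limit that a count of 0 allows in that library. That is a 95% limit on the upper side alone, whereas the 95% intervals of estradiol reads have a low and a high end. The limit holds for a gene taken without regard to its count. These genes were chosen for a mock count of 0, so some of them may have been above it. A single read was worth 0.995 normalized counts in estradiol and 1.01 in mock. In whole tissue, fewer cells of a type and less RNA per cell cannot be told apart. All intervals and limits below cover counting error only, and with 1 library per group no difference had a replicate check or a p-value.

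Most of the 159 genes were read at low levels in estradiol, and a few were read well above the limit. Reads per gene ran from 10 to 728 with a median of 21, and the middle of the distribution lay between 13 and 38.5 reads (lower and upper quartiles). In classes of reads, 53 genes (33.3%) had 10 to 14 reads, 23 genes (14.5%) had 15 to 19, and 55 genes (34.6%) had 20 to 49. The upper end was thin, with 14 genes (8.81%) at 50 to 99 reads and 14 genes (8.81%) at 100 or more. Together the genes held 7602 reads, which was 0.0580% of the estradiol library. The 2 most read genes took 17.9% of these reads, the first 10 took 44.5% and the first 20 took 57.6%. At the edge of the rule, 8 genes had exactly 10 reads (9.95 normalized counts), and 24 genes with 9 reads (8.96 normalized counts) and 0 mock reads stayed outside.

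**Figure D1:**
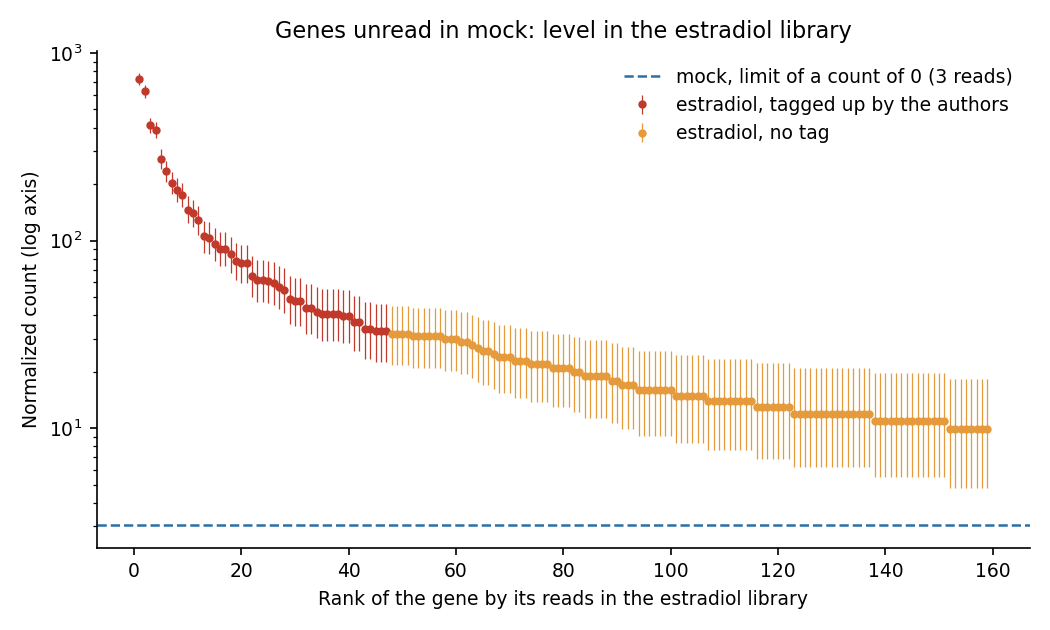
Normalized count in the estradiol library (log axis) of the 159 genes with 0 mock reads, ordered by their reads. Points are single-library values, bars are exact Poisson 95% intervals of the reads, colours mark the tag in the authors' deposited table, and the dashed line is the mock limit of 3.04 normalized counts. The values drop from 724 at the first gene to a long shelf of genes between about 10 and 32.

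The most read gene of the set was Mapoly0079s0012.1.v3.1, on scaffold Mapoly0079. Its estradiol level was 724 normalized counts (728 reads, exact Poisson 95% interval 676 to 783 reads), with 0 reads in mock. With its estradiol reads at the low end of that interval and mock at the limit of 3 reads, the fold came to 222. The second, Mapoly0045s0144.1.v3.1 on scaffold Mapoly0045, reached 626 normalized counts with estradiol (629 reads, 581 to 680) and had 0 mock reads. On the same terms its fold came to 190.3. Both are far from the estradiol edge of the rule, but a single mock read would have left either of them out of the set.

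The genes ranked 3 to 10 lay on 8 different scaffolds. Rank 3 was gene 1 of scaffold Mapoly0136, at 411 normalized counts with estradiol and 0 with mock. Rank 4 was gene 190 of scaffold Mapoly0002, with 389 in estradiol and 0 in mock. Next in order were gene 10 of scaffold Mapoly0213 with 273 normalized counts in estradiol and gene 121 of scaffold Mapoly0040 with 234, both at 0 in mock. Ranks 7 to 10 had 203, 187, 175 and 146 normalized counts in estradiol, on scaffolds Mapoly0141, Mapoly0038, Mapoly0030 and Mapoly0035, again with 0 in mock. No 2 of these 10 genes shared a scaffold, although 6 of the 10 scaffolds held a further gene of the set.

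Over the whole set the size of the difference could be bounded only from below. With estradiol reads at the low end of their interval and 3 mock reads, the lower bound of the fold ran from 1.57 to 222 with a median of 4.26. That bound was at least 2 for 137 of the 159 genes, at least 5 for 70, at least 10 for 33, at least 20 for 19, at least 50 for 8 and at least 100 for 4. The bound follows from the estradiol reads alone, which the rule cut at 10, and its lowest value is that of the genes with 10 reads. These counts therefore restate the levels, and nothing more is read from them. With the estradiol reads as found, leaving out their own counting error, the fold against 3 mock reads ran from 3.28 to 239 with a median of 6.88. On the log2 scale with a pseudocount of 10, which understates changes at low levels, the log2 ratio ran from 0.996 to 6.20 with a median of 1.63, beside a median of 0.02 over all 16280 genes. By that measure 151 of the 159 genes were 2-fold or more higher in estradiol, against 12.6% of all genes higher and 14.8% lower. The 8 others were those with exactly 10 reads. Since the rule used the same 2 values, nothing is read from this count.

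The tags of the authors' deposited table followed the reads. The table tagged 47 of the 159 genes (29.6%) as up and 0 as down, where it tagged 10.3% of all genes as up. The tags rest on the same values as the rule, so nothing is read from this share. Every tagged gene of the set had 33 reads or more and every untagged gene 32 or fewer, so the tag divides the set at a level. In the authors' deposited table the mock value of all 159 genes was written as 0.5, which made its log2 ratios run from 4.31 to 10.5 with a median of 5.39. The probability score in the authors' deposited table ran from 0.656 to 0.999 over the set, with a median of 0.827.

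The set is the end of a wider group of genes with few mock reads, and it was compared with its mirror image. Genes with 0 mock reads numbered 1240, of which the 159 made 12.8%. Of 833 genes with exactly 1 mock read, 109 (13.1%) had 10 or more reads in estradiol, a share close to that at 0 reads. The share was 23.2% at 2 mock reads, 24.0% at 3, 36.8% at 4 to 5 and 52.1% at 6 to 9. In the mirror direction, the share of genes with 10 or more mock reads was 7.24% at 1 estradiol read, 9.57% at 2, 12.9% at 3, 22.6% at 4 to 5 and 29.95% at 6 to 9. Each of these classes from 1 to 9 reads thus held a larger share of genes well read in estradiol than of genes well read in mock. Mock had more reads in all, but a read was worth nearly the same in both libraries, 0.995 and 1.01 normalized counts. Of all 5315 genes with a mean under 50 normalized counts, 628 were 2-fold or more higher in estradiol and 423 lower. Of the 5437 at 500 or more, 650 were higher and 971 lower.

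At 0 reads the shares were 12.8% of 1240 genes by mock reads and 14.2% of 577 genes by estradiol reads. Genes unread in both libraries are not in the table, which lifts both shares at 0 by an unknown amount. The mirror set, with 0 estradiol reads and at least 10 mock reads, counted 82 genes (0.504% of 16280, beside 0.977% for the 159). Its genes had a median of 20.5 mock reads and a highest value of 1452, beside a median of 21 and a highest value of 728 in the set read in estradiol. Both sets were cut at 10 reads and these reads are not scaled for depth, so no likeness is read from the medians.

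**Figure D2:**
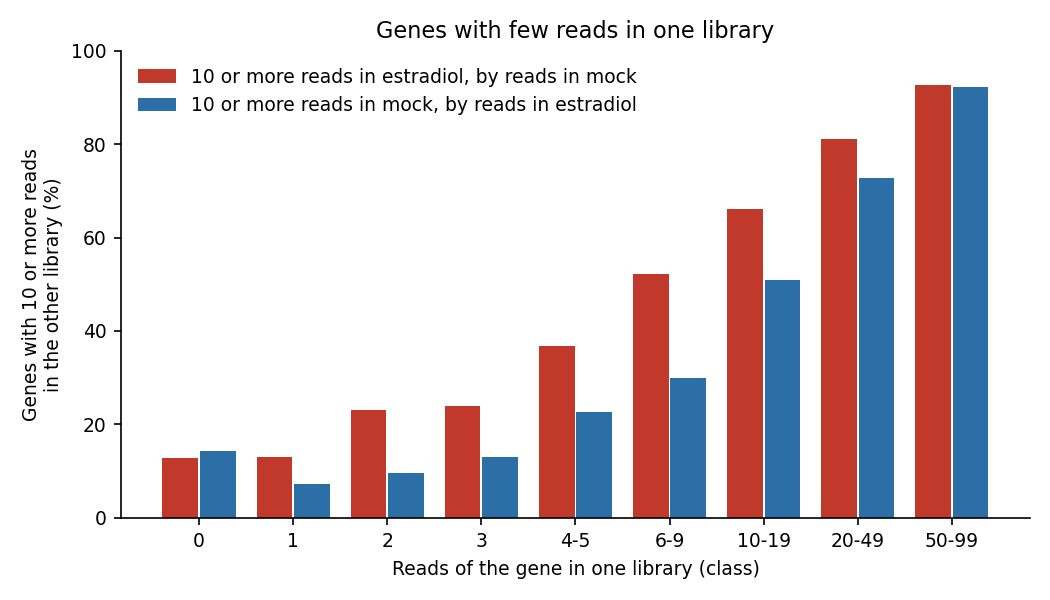
Share of genes with 10 or more reads in estradiol, by class of mock reads (left bar of each pair), and share with 10 or more reads in mock, by class of estradiol reads (right bar). The x axis is the number of reads in the class and the y axis a percentage of the genes in it. From 1 to 49 reads the left bar is the higher, such as 52.1% and 29.95% at 6 to 9 reads.

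Position was not used to choose the genes. Each identifier holds a scaffold and a gene number, and the numbering is assumed to run along the scaffold, an assumption that was not tested. The 159 genes lay on 105 of 576 scaffolds, with 71 scaffolds holding 1 gene of the set, 22 holding 2 and 12 holding 3 or more. The highest number was 5, on scaffold Mapoly0003, which has 275 genes in the table. Scaffolds with 4 were Mapoly0005, Mapoly0022, Mapoly0038, Mapoly0051, Mapoly0064 and Mapoly0074. Scaffolds with 4 had from 85 (Mapoly0074) to 269 (Mapoly0005) genes in the table. The 12 scaffolds with 3 or more held 44 genes of the set. They were picked by that count, and their share of all genes was not set beside it, so neither spread nor crowding is read from it.

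Part of the set sat side by side. Another gene of the set carried the next number for 15 of the 159 genes (9.43%), on 7 scaffolds. Of the 264 direct places around the set with a gene in the table, 16 (6.06%) held a gene of the set, beside the 0.977% of all genes that belong to it. At a distance of up to 2 numbers this count was 22, on 9 scaffolds, and at up to 5 it was 24. Going from 2 to 5 numbers added 2 genes, so nearly all of the closeness was between direct or next-but-one neighbours. Whether genes of the set next to each other are copies of one gene was not tested, since no sequences were used here, and reads divided between near-identical copies would be uncertain.

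The longest unbroken row of the set was on scaffold Mapoly0051. Its genes 81, 82 and 83 had 31.8, 28.9 and 36.8 normalized counts in estradiol and 0 each in mock. The Poisson intervals of these 3 levels overlapped. Gene 84 had 4.98 in estradiol and 0 in mock, and gene 85 had 161 in estradiol and 225 in mock, so the row ended there. Further back, gene 74 of the same scaffold stood at 1177 normalized counts with estradiol and 3.04 with mock, and missed the set by its 3 mock reads.

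Scaffold Mapoly0038 held 3 genes of the set within a longer stretch of higher genes. Genes 70, 71 and 73 had 40.8, 23.9 and 187 normalized counts in estradiol and 0 each in mock. Gene 72, between them, had 61.7 in estradiol and 20.2 in mock. Gene 74 had 75.6 in estradiol and 1.01 in mock, and gene 75 had 334 in estradiol and 104 in mock. All 6 consecutive genes were thus 2-fold or more higher in estradiol, with log2 ratios from 1.25 to 4.30, while gene 69 just before them had a log2 ratio of -1.03 and 524 normalized counts in estradiol against 1080 in mock.

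Other pairs were uneven in level. On scaffold Mapoly0002, genes 189 and 190 had 12.9 and 389 normalized counts in estradiol, and 0 each in mock. On scaffold Mapoly0022, genes 82 and 83 had 15.9 and 128 in estradiol, and 0 each in mock. Pairs on Mapoly0020 (30.8 and 54.7 in estradiol), Mapoly0093 (20.9 and 60.7) and Mapoly0102 (9.95 and 13.9) were closer to each other in level. On Mapoly0003, Mapoly0022 and Mapoly0030 a further 3 pairs were separated by a single gene. That gene differed among them, with 6.97 normalized counts in estradiol and 0 in mock on Mapoly0003, 3436 in estradiol and 1015 in mock on Mapoly0022, and 1210 in estradiol and 1007 in mock on Mapoly0030.

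**Figure D3:**
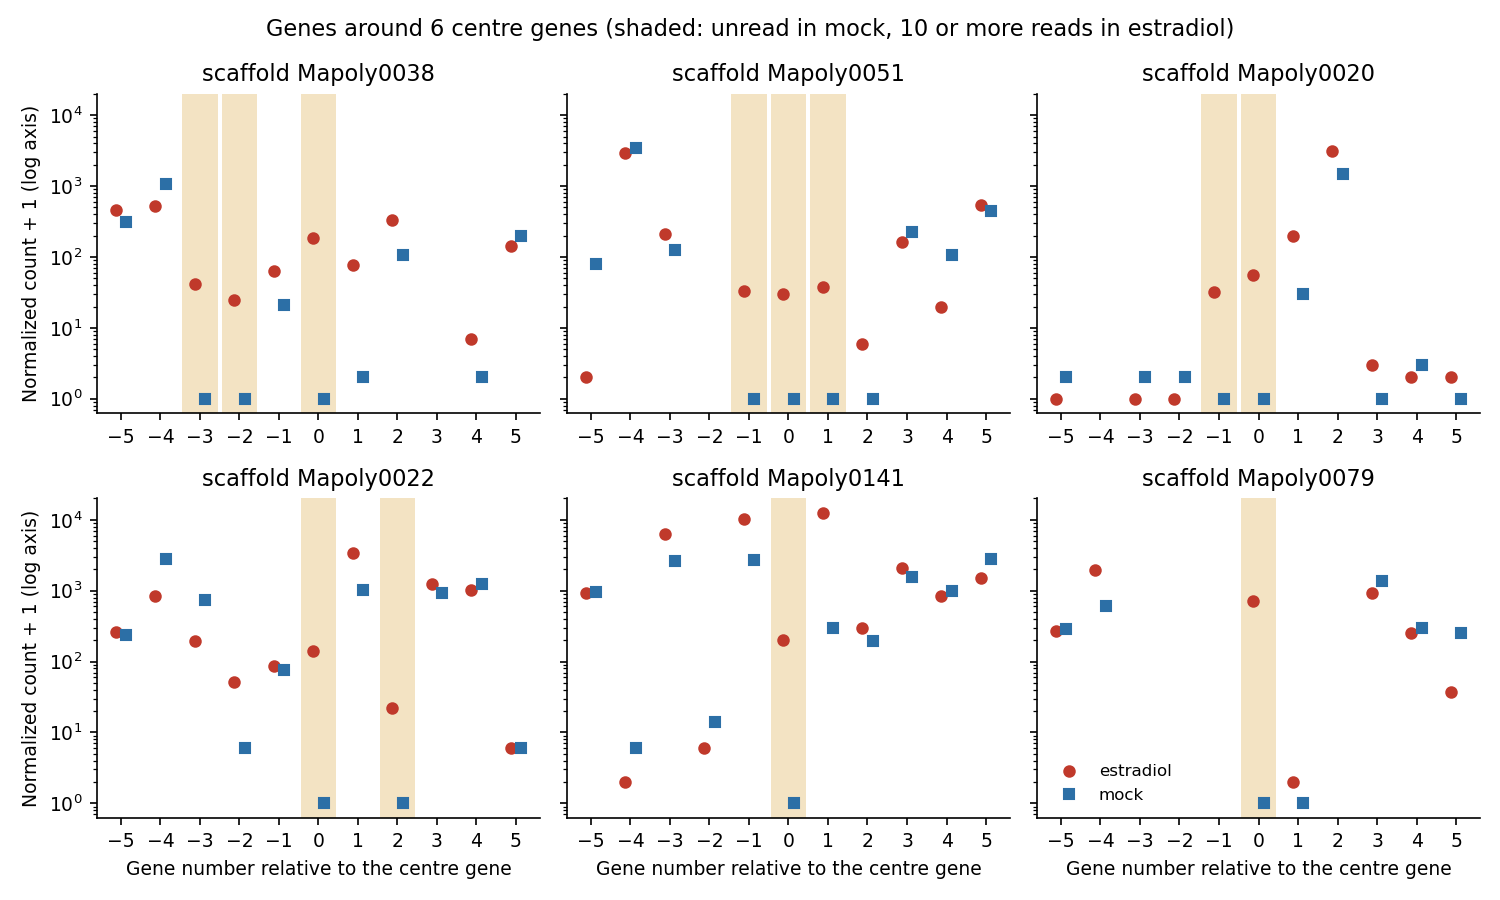
Normalized count + 1 (log axis) in estradiol (circles) and mock (squares) of genes numbered up to 5 before or after a centre gene on 6 scaffolds, chosen after the values were seen. Shading marks genes with 0 mock reads and at least 10 estradiol reads, and a gap is a number with no gene in the table. On Mapoly0038 the 6 genes from -3 to 2 all lie higher in estradiol, and on Mapoly0079 the gene at 724 normalized counts has no such gene directly beside it.

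Genes next to the set were higher in estradiol more often than genes at large. Of the 318 places directly before or after the 159 genes, 264 held a gene of the table, and 244 different genes outside the set stood there. Of these 244, 72 (29.5%) were 2-fold or more higher in estradiol and 23 (9.43%) were 2-fold or more lower, beside 12.6% and 14.8% over all genes. Their median log2 ratio was 0.43, beside 0.02 over all genes. Of the 244, 64 (26.2%) were tagged up and 20 (8.20%) down in the authors' deposited table, beside 10.3% and 13.4% of all genes. With both libraries set to equal totals, a scaling that shifted the overall median log2 ratio by 0.15, 86 of the 244 (35.2%) were higher and 19 (7.79%) lower, beside 16.4% and 11.6% of all genes. Neighbouring genes are not independent of each other, and these counts describe 2 libraries.

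The difference faded within a few gene numbers. At a distance of 2, 46 of 243 genes (18.9%) were 2-fold or more higher in estradiol, and at a distance of 3, 33 of 252 (13.1%). From 4 to 10 numbers away the share lay between 10.5% and 15.6%, on both sides of the 12.6% of all genes. The share of lower genes was 9.43% at distance 1, 10.3% at 2 and 11.9% at 3, under the 14.8% of all genes. Around the 82 genes of the mirror set the picture was turned round, with 32 of 87 direct neighbours (36.8%) lower in estradiol and 7 (8.05%) higher. Around the 1073 genes with 0 mock reads and 1 to 9 estradiol reads, 232 of 1503 direct neighbours (15.4%) were higher and 215 (14.3%) lower, beside 12.6% and 14.8% of all genes.

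**Figure D4:**
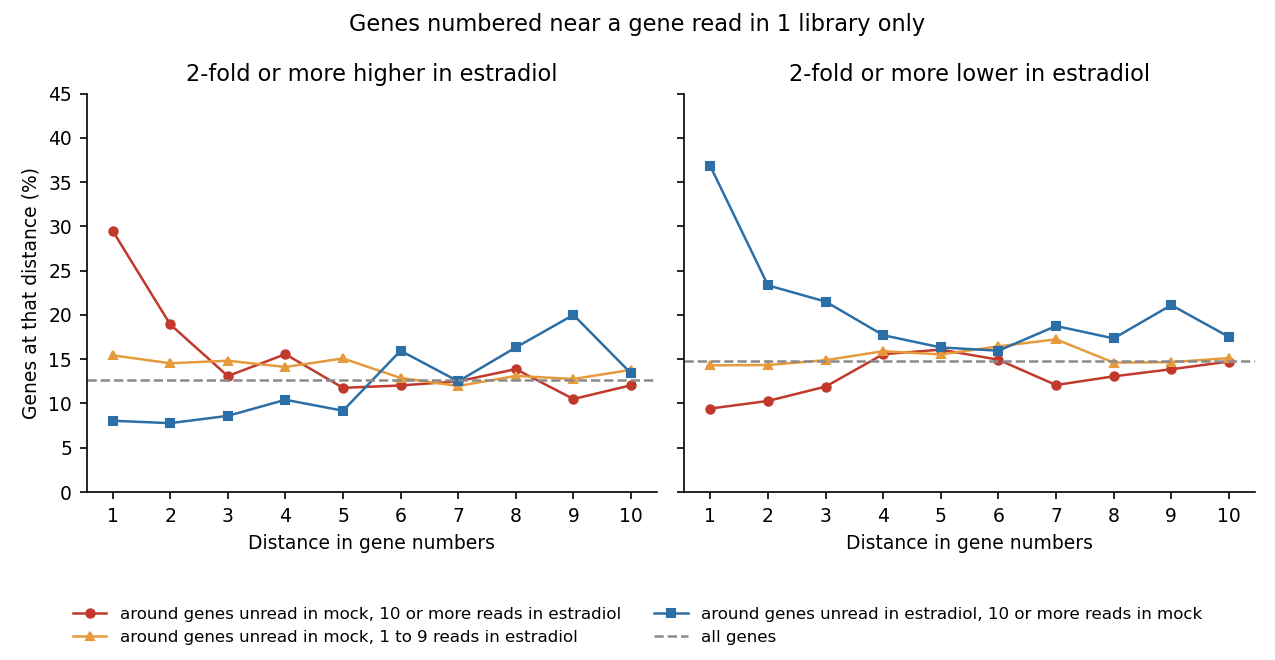
Percentage of genes 2-fold or more higher in estradiol (left panel) and lower (right panel) against their distance, in gene numbers, from genes read in 1 library only or nearly so. The dashed line is the percentage over all genes, 12.6% higher and 14.8% lower. Around the 159 genes (circles) the share of higher genes was 29.5% at distance 1 and 13.1% at distance 3.

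The direct neighbours included very abundant genes. The 72 higher neighbours had from 16.9 to 59250 normalized counts in estradiol with a median of 641, and from 1.01 to 8001 in mock with a median of 114. Only 11 of the 72 had 3 or fewer mock reads, so most were well read without induction. Among neighbours with a mean of 500 normalized counts or more, 34 of 87 (39.1%) were 2-fold or more higher in estradiol, beside 11.96% of all genes at that level. Between 50 and 500 the share was 25.4% (17 of 67), beside 774 of 5528 among all genes, and under 50 it was 23.3% (21 of 90), beside 11.8% of all genes. The excess of higher genes was thus present at all 3 levels and was the widest among abundant genes.

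**Figure D5:**
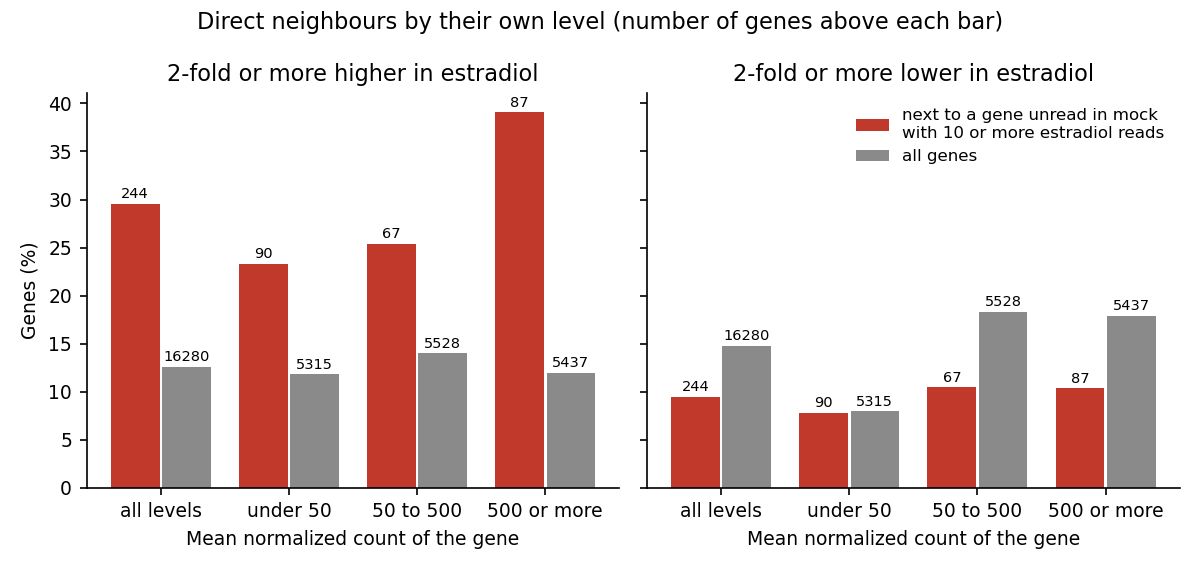
Percentage of genes 2-fold or more higher in estradiol (left panel) and lower (right panel), for the 244 direct neighbours and for all genes, by mean normalized count. The number of genes stands above each bar. The direct neighbours exceed all genes in the left panel at each level, with 39.1% against 11.96% at 500 or more.

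Some neighbours were far more abundant than the gene of the set beside them. For 30 of the 159 genes a direct neighbour had at least 100 times their estradiol reads. The like count around other genes of few reads was not made, so nothing is read from the 30. These neighbours were picked by high estradiol reads, which favours genes higher in estradiol. Of the 31, 18 (58.1%) were 2-fold or more higher in estradiol and 0 lower, beside 481 (20.2%) higher and 216 (9.07%) lower among all 2381 genes with as many estradiol reads (1257 or more). On scaffold Mapoly0141, gene 20 of the set stood at 203 normalized counts with estradiol and 0 with mock. Beside it, gene 21 had 12635 in estradiol and 298 in mock, and gene 19 had 10267 in estradiol and 2731 in mock. On scaffold Mapoly0074, gene 7 of the set had 11.9 in estradiol and 0 in mock, beside gene 6 with 59250 in estradiol and 7514 in mock. The sources used here do not say whether counting used strand. The part of reads that cross from an abundant gene into its neighbour was not tested.

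Other strong neighbours were of moderate level and almost unread in mock. On scaffold Mapoly0028, gene 107 stood at 623 normalized counts with estradiol and 3.04 with mock, next to gene 108 of the set with 31.8 in estradiol and 0 in mock. On scaffold Mapoly0072, gene 47 had 645 in estradiol and 4.05 in mock, next to gene 48 of the set with 24.9 in estradiol and 0 in mock. On scaffold Mapoly0064, gene 71 had 222 in estradiol and 2.02 in mock, next to gene 72 of the set with 36.8 in estradiol and 0 in mock. In these 3 cases the gene outside the set was the more strongly read of the pair and missed the set by 2 to 4 mock reads.

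Seen gene by gene, 61 of the 159 genes had a gene 2-fold or more higher, in the set or outside it, on 1 side, 14 had such genes on both sides and 84 had none. The like counts over all genes were not made. Genes of the set were counted as neighbours too, and the rule makes nearly all of them 2-fold higher, so nothing is read from these counts. The 2 most read genes of the set were among the 84 without a higher gene beside them. The gene numbered just after Mapoly0079s0012.1.v3.1 stood at 0.995 normalized counts with estradiol and 0 with mock, and no gene of the table carried the 3 numbers before it. Mapoly0045s0144.1.v3.1 stood between a gene with 209 normalized counts in estradiol and 113 in mock and a gene with 12.9 in estradiol and 69.8 in mock. The first of these 2 genes had a log2 ratio of 0.83 and the second of -1.80, so neither was 2-fold higher.

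Counted as unbroken rows of consecutive genes that were each 2-fold or more higher in estradiol, 33 of the 151 genes of the set that passed that threshold (21.9%) stood in a row of 3 or more, beside 280 of 1899 other higher genes (14.7%). Another 79 of the 151 (52.3%) stood alone, beside 1184 of 1899 (62.3%). The groups were not separate, as other higher genes in the rows of the set are among the 280. A row could also consist of genes of the set alone, as on Mapoly0051, and the rule had chosen these as higher. Nothing is therefore read from the difference between the shares. The rows of 3 or more that held a gene of the set numbered 26, with 95 genes in all. The longest had 6 genes, on Mapoly0038 as given above and on Mapoly0062. On Mapoly0062, gene 20 of the set stood at 56.7 normalized counts with estradiol and 0 with mock. It stood in the row from gene 17 to gene 22, whose log2 ratios ran from 1.16 to 2.74 and whose most read gene reached 6653 normalized counts with estradiol and 1575 with mock. Rows of 5 genes on Mapoly0003 and Mapoly0028 held 1 gene of the set each.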

How the data were processed

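RNA was measured in 2 libraries, 1 estradiol and 1 mock. Per the submitters' processing notes, reads went through FastQC, STAR and HTSeq. Versions, genome build, use of strand and normalization method are not given in the sources used here. In 1 table the authors deposited the signal of each gene as a normalized count. Per the file headers, a second table has 0 written as 0.5 and adds a log2 ratio, a tag and a probability, which is a score up to 1. That score was not treated as a p-value. Dividing each column by its smallest non-zero value gave whole numbers within 3.63e-05, which were taken as the reads.

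The 159 genes, the comparisons and the lists were chosen with earlier results of these data known. Ratios were log2 of (normalized count + 10), with no filter on low values. Lower bounds of the fold used 3 mock reads and the low end of the Poisson interval of the estradiol reads. Neighbours were found from the gene numbers on each scaffold. Because identifiers could not be paired with names, the 2 genes of the set with the most reads are named in full and others by scaffold and gene number, those outside the rule after their values were seen. The planned gene lists, protein comparison, promoter motif and transgene levels were not run for the same reason. With 1 library per group no test was made. Alternatives were other read limits, pseudocounts of 1 and 50, a mean filter of 10, equal totals and other distances. The counting code was tested on simulated data. Python 3.11.15, NumPy 2.4.6, pandas 2.3.3, SciPy 1.17.1 and Matplotlib 3.10.9 were used.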

Additional observations from a re-analysis of the deposited data

How the results depend on the processing

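No paired analysis was possible because there was 1 library of each treatment. For the same reason no replicate could be left out, and variation between plants is unknown. The number of genes in the set follows its limits: 338 with at least 5 estradiol reads, 83 with 20 and 28 with 50, and 268 with at most 1 mock read and 449 with at most 3. Keeping the male sex chromosome identifiers left 159. The median fold against 3 mock reads, 6.88, was 8.28 under equal totals, 41.8 with the authors' 0.5 as the mock level and 4.26 with the estradiol reads at the low end of their interval, a setting chosen after seeing the data. The median log2 ratio of 1.63 was 4.45 with a pseudocount of 1 and 0.50 with 50. The 151 genes of the set at 2-fold or more became 81 with a mean of 10 or more, as only 81 of the 159 pass that filter, and 28 with a pseudocount of 50. They were 159 with a pseudocount of 1 and under equal totals. With a probability of 0.95 or more required in the authors' deposited table, the 47 tagged genes became 28. Genes of the set with another within 5 numbers were 24, against 15 within 1.

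The 72 higher neighbours were 54 with a pseudocount of 50 (22.1%, beside 7.72% of all genes), 104 with a pseudocount of 1 (42.6%, beside 19.9%), 71 of 191 with a mean of 10 or more (37.2%, beside 1930 of 12854) and 86 under equal totals.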

Other observations

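The share of genes that belonged to the set was compared across scaffolds of different size. On 371 scaffolds with 1 to 9 genes in the table, 8 of 569 genes (1.41%) were in the set. The share was 24 of 2509 (0.957%) on scaffolds with 10 to 49 genes, 52 of 4164 (1.25%) with 50 to 99 and 75 of 8990 (0.834%) with 100 or more.

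Neighbours were also counted by the level of the gene of the set beside them. Next to the 47 genes tagged up in the authors' deposited table, 23 of 71 genes outside the set (32.4%) were 2-fold or more higher in estradiol. Next to the 112 untagged genes, 51 of 177 (28.8%) were, and the difference was not tested. Of the direct neighbours, 57 of 244 (23.4%) had 3 or fewer mock reads, beside 17.5% of all genes.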
